A study of Mus musculus with 2 samples.

Results

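Igf2bp1, Igf2bp2, Igf2bp3, Lin28a, Lin28b, Hmga1 and Hmga2 are known as fetal genes. Most of them are high in embryonic tissues, are low in most adult tissues and return in many tumours. They were followed in 2 mouse epithelial cell lines, Mle29c and Mlesico, each measured on 1 oligonucleotide expression array. The genes were taken by symbol, as every probe set (a group of short probes summarised into 1 signal) whose single annotated gene is one of the 7. This gave 17 of 45101 probe sets and 5 of 18193 genes with such a probe set. Igf2bp1 had 4 probe sets, Igf2bp3 had 6, Lin28a had 2, Lin28b had 1 and Hmga2 had 4; Igf2bp2 and Hmga1 were not analysed here. Both lines were kept in DMEM with serum, and the labels name no treatment. By its title, the series is about the microRNA miR-29c, lung fibrosis and the lung epithelium. The labels do not say what was introduced into Mle29c or Mlesico cells, whether miR-29c is raised or lowered, or whether either line is 1 clone.

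The Igf2bp proteins bind mRNAs, among them that of insulin-like growth factor 2, and set their stability, transport and translation. Lin28a and Lin28b bind precursors of the let-7 microRNAs and block their maturation, and Hmga1 and Hmga2 bend AT-rich DNA as chromatin architectural proteins. The mRNAs of Hmga2, Lin28b and the Igf2bp genes are known targets of let-7, so that Lin28, let-7 and these genes form a circuit that marks fetal growth. In developing organs let-7 rises and most of these fetal genes decline as cells mature.

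The mature microRNAs of the circuit are shown because their seeds, bases 2 to 8 and given in capitals, set which mRNAs they pair with. The let-7 arms, from RefSeq with the GRCm38.p6 assembly, come from chr13:48538239-48538260 (minus strand), chr13:48536078-48536099 (minus strand), chr9:106178846-106178867 (plus strand) and chrX:151913229-151913250 (plus strand).
let-7a-5p: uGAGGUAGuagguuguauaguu
let-7d-5p: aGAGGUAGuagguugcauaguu
let-7g-5p: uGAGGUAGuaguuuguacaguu
miR-98-5p: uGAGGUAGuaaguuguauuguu
All 4 carry the seed GAGGUAG, which 11 of the 1679 mature microRNAs in the table share, and let-7d-5p starts with another base before it. The microRNA after which the series is named lies at chr1:195037600-195037621 (plus strand) and has the seed AGCACCA, shared with miR-29a-3p and miR-29b-3p only.
miR-29c-3p: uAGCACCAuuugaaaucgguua
The seeds of let-7 and miR-29 differ, and the level of neither microRNA was measured on these arrays.

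The deposited values are logarithms of MAS5 signals, read here as log2, and are centred: for each probe set the values of both arrays sum to 0 within 1e-06. Absolute levels and differences in level between genes were therefore lost, and the value used is the log2 ratio, Mle29c minus Mlesico. A coarse level class could be read back from the rounding of the numbers. Probe sets with a mean log2 level of 8 or more were called high, 4 to 8 middle, and lower ones low, and a gene counts as measured when at least 1 probe set is high or middle. Low probe sets scattered most: 56.1% of 7782 were past 2-fold in either direction, while 15.4% of the 27058 measured ones were. In the 14780 measured genes the median log2 ratio was 0.01. With 1 array per line there was no spread between replicates, no test was possible, and the number of arrays limits the precision. Whether a difference would recur in other cultures of the lines cannot be told from these data. The only spread available is between probe sets of the same gene, with a pooled SD of 0.62 in log2 ratio over 6844 genes. Those probe sets share the same RNA and arrays, so this SD holds no error between arrays or cultures. In bulk RNA, fewer cells with a transcript and less transcript per cell cannot be told apart.

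Igf2bp3 stood lower in Mle29c on every probe set, Igf2bp1 and Lin28a leaned the same way by under 2-fold, and Hmga2 leaned the other way. Of the 4 measured genes, 1 was at least 2-fold lower in Mle29c and none at least 2-fold higher, where 7.25% of all measured genes were lower and 8.46% higher by that size. The genes were selected on a known function and on these same log2 ratios, seen in an earlier look at the 2 arrays, so the counts are a description. Of the 15 measured probe sets, 6 were at least 2-fold lower, all of them for Igf2bp3, and 1, for Hmga2, was at least 2-fold higher. Over all measured probe sets those shares were 7.38% and 7.99%.

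**Figure D1:**
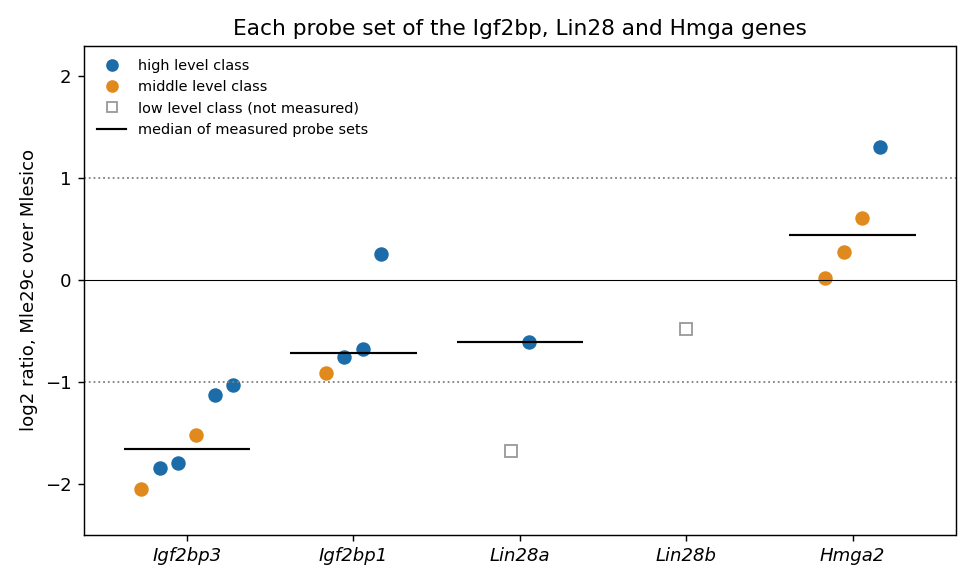
The log2 ratio of Mle29c over Mlesico (vertical axis) is plotted for each of the 17 probe sets of 5 genes; colours give the level class, open squares are low-class probe sets that were not counted as measured, black bars are medians of the measured probe sets and dotted lines mark 2-fold. All 6 Igf2bp3 points lie below -1, the 4 Hmga2 points lie above 0, and 1 of the 4 Igf2bp1 points is above 0.

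Igf2bp3 encodes an RNA-binding protein of fetal tissues that is widely used as a tumour marker. Probe set 1453957_a_at had centred log2 values of -1.02 in Mle29c and 1.02 in Mlesico. Probe sets 1422610_s_at and 1422611_s_at had -0.92 and -0.90 in Mle29c, against 0.92 and 0.90 in Mlesico. Mle29c was the lower array on each of these, by 3.46-fold to 4.13-fold. Probe set 1450687_at had -0.76 in Mle29c and 0.76 in Mlesico. Probe sets 1433732_x_at and 1433731_at had -0.56 and -0.52 in Mle29c, against 0.56 and 0.52 in Mlesico. The last pair, designed on another sequence of the gene, gave the smallest differences, at 2.18-fold and 2.04-fold.

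The 6 log2 ratios of Igf2bp3 thus ran from -2.05 to -1.03, with a median of -1.66 (3.15-fold lower in Mle29c) and an SD of 0.41. That SD is below the pooled 0.62. It is above the median SD of 0.36 over the 1346 genes with 4 or more measured probe sets, of which 42.2% were more variable. Of its probe sets, 4 were in the high class and 2 in the middle class, and none was low. The gene ratio was -1.46 over the high class alone and -1.52 without the _x_at and _s_at probe sets, whose probes can match other transcripts. Among all measured genes, 474 (3.21%) had a lower ratio. Of the 250 genes with 6 or more measured probe sets, 5 had a median at least 2-fold lower, or 2% of the 250. All probe sets of 1 gene, Igf2bp3 itself, were at least 2-fold lower (0.4%), and no gene had them all at least 2-fold higher. The other 4, chosen after their values were seen, were Gja1 at -1.37, Tgs1 at -1.17, Ntrk3 at -1.10 and Fmod at -1.05. Their highest probe sets lay between -0.96, for Tgs1, and 0.34. The cut of 6 is the number of probe sets of Igf2bp3, which was also selected on these ratios. Its place among the 250 genes is therefore a description and no measure of rarity.

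**Figure D2:**
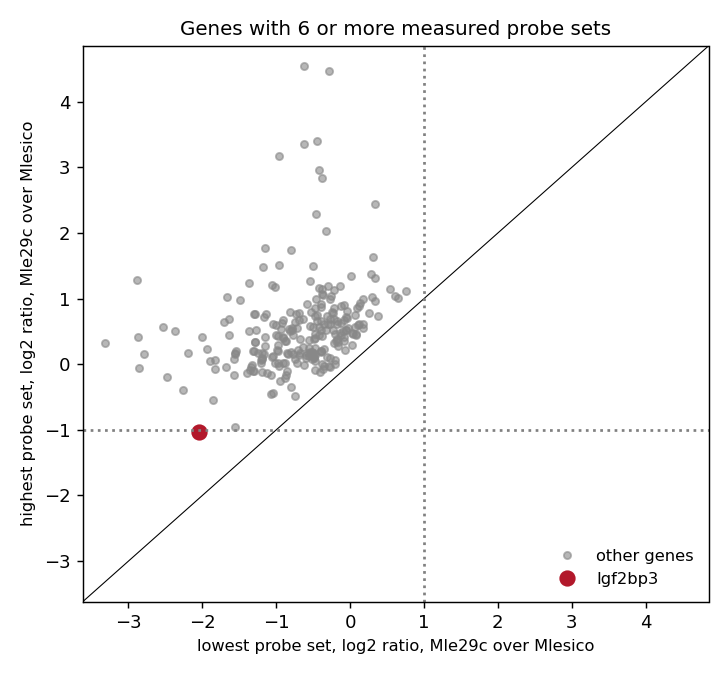
Each point is 1 of the 250 genes with 6 or more measured probe sets, with the log2 ratio of its lowest probe set on the horizontal axis and of its highest on the vertical axis; the diagonal marks equality and the dotted lines 2-fold. Igf2bp3, at -2.05 and -1.03, is the only point below the horizontal dotted line, and no point lies right of the vertical one. The cut of 6 is the number of probe sets of Igf2bp3, which was selected on these ratios.

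Igf2bp1, also known as the zipcode-binding protein, escorts beta-actin mRNA and shields Myc mRNA from decay. Its probe set 1449210_at had a centred log2 value of -0.46 in Mle29c and 0.46 in Mlesico. Probe set 1455223_at had -0.38 in Mle29c and 0.38 in Mlesico, and 1418761_at had -0.34 in Mle29c and 0.34 in Mlesico. On these 3 probe sets the Mle29c array was lower by 1.6-fold to 1.89-fold. The fourth, 1459825_x_at, had 0.13 in Mle29c and -0.13 in Mlesico, so that it pointed the other way. The gene ratio was -0.72 (SD 0.53 between the 4 probe sets), or 1.64-fold lower in Mle29c. It came to -0.76 without the _x_at probe set and to -0.33 over the 2 probe sets whose class is best determined.

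Lin28a blocks let-7 maturation in embryonic stem and germ cells. Probe set 1437752_at, in the high class, had a centred log2 value of -0.31 in Mle29c and 0.31 in Mlesico, a log2 ratio of -0.61. Probe set 1421749_at had -0.84 in Mle29c and 0.84 in Mlesico, a log2 ratio of -1.68, but it was in the low class and is not counted. Both probe sets were lower in the Mle29c array. Lin28b, the relative that carries this role in many tumours, had a single probe set with -0.24 in Mle29c and 0.24 in Mlesico. Its log2 ratio of -0.48 came from the low class, so Lin28b was not measured here. With a looser reading of the rounding it moved to the middle class at the same ratio.

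Hmga2 shapes chromatin in growing mesenchyme and is a classical let-7 target. Probe set 1450780_s_at, the only one of the gene in the high class, had a centred log2 value of 0.65 in Mle29c and -0.65 in Mlesico, a 2.47-fold difference. Probe set 1450781_at had 0.30 in Mle29c and -0.30 in Mlesico. Probe set 1446196_at had 0.14 in Mle29c and -0.14 in Mlesico. The remaining one, 1422851_at, had 0.01 in Mle29c and -0.01 in Mlesico, so the same gene gave differences from 1.02-fold to 2.47-fold. The gene ratio was 0.44 (1.36-fold higher in Mle29c, SD 0.55). All 4 ratios were above 0, as in 16% of the 1346 genes with 4 or more measured probe sets. Of those genes 250 had 6 or more, so 16% is not the share for genes with exactly 4. The ratio was 1.30 in the high class alone, which is 1 probe set, and 0.28 without the _s_at probe set. The pseudogene Hmga2-ps1 had its own probe set at -0.21.

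**Figure D3:**
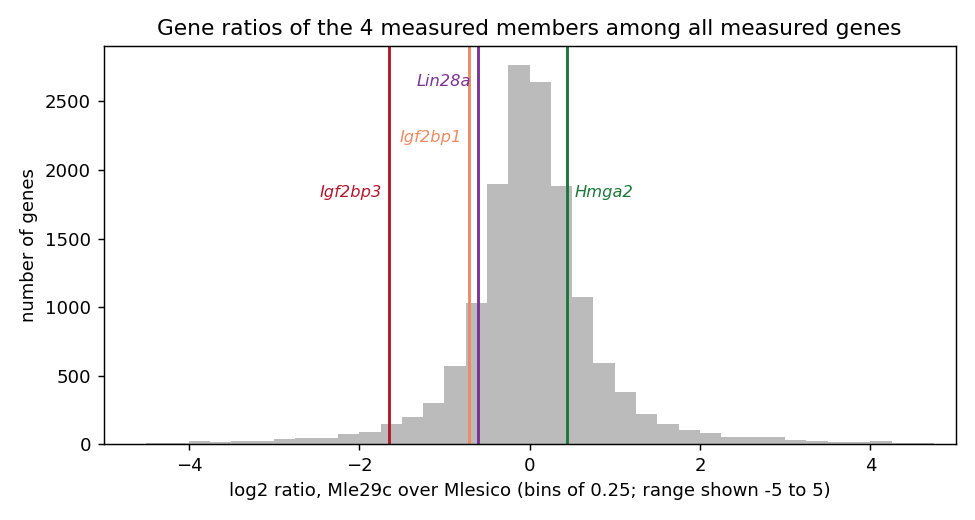
The grey histogram counts the 14780 measured genes by log2 ratio of Mle29c over Mlesico in bins of 0.25, shown from -5 to 5, and the coloured lines mark 4 genes. Igf2bp3 at -1.66 lies in the lower tail, while Igf2bp1 at -0.72, Lin28a at -0.61 and Hmga2 at 0.44 lie inside the main body of the distribution.

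In the order of their ratios the genes ran from Igf2bp3 over Igf2bp1 and Lin28a to Hmga2. Igf2bp1 and Lin28a were 0.11 apart, less than the SD between probe sets of a gene, and cannot be ordered. The highest Igf2bp3 probe set, at -1.03, was below the lowest Igf2bp1 probe set, at -0.92. The genes nearest to Igf2bp3 in ratio were Grap2, Gm15496 and A330049N07Rik, all at -1.66 and each from 1 probe set. With both columns mirroring each other, likeness over 2 arrays is only equality of this ratio.

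Chromosomes differed in their median ratio between these arrays, so each gene was set against its neighbours. Igf2bp3 lies at chr6:49085218-49215469 (GRCm38.p6), on a chromosome with a median log2 ratio of 0.32 over 771 measured genes. Of the 38 other measured genes that start within 2 Mb, none had a ratio as low, and their median was 0.47. The nearest on either side, Malsu1 and Tra2a, stood at 0.35 and 0.32. Relative to its chromosome Igf2bp3 was at -1.98, a larger difference than before centring. Igf2bp1, at chr11:95957163-96005944, lies on a chromosome with a median of -0.25. It stood at -0.47 relative to that median, and 12 of its 78 neighbours had a ratio at least as low. B4galnt2 and Snf8, on either side, were at 0.19 and -0.29. The shift of the whole chromosome thus has the same sign as the Igf2bp1 ratio, and its part in the result was not tested.

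Lin28a, at chr4:134003330-134019196, was at -0.54 relative to its chromosome, with 7 of 75 neighbours as low or lower. Dhdds on one side was at 0.19 and Cd52 on the other at -1.79. Hmga2, at chr10:120361268-120476469, stood above 19 of its 21 neighbours, whose median was -0.23. Tmbim4 was at -0.45. The nearest gene on the other side, 1700006J14Rik, starts inside the span of Hmga2 and had a ratio of -5.17 from 1 probe set. Transcripts of the same stretch thus gave ratios of opposite sign, and whether probes of one also detect the other was not tested. Beside Lin28b, Bves was at -3.69 from 1 probe set and Hace1 at 0.08. Around Igf2bp2, Senp2 and Tra2b were at 0.16 and 0.06, and around Hmga1, Grm4 and AI413582 were at 0.59 and 0.55.

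**Figure D4:**
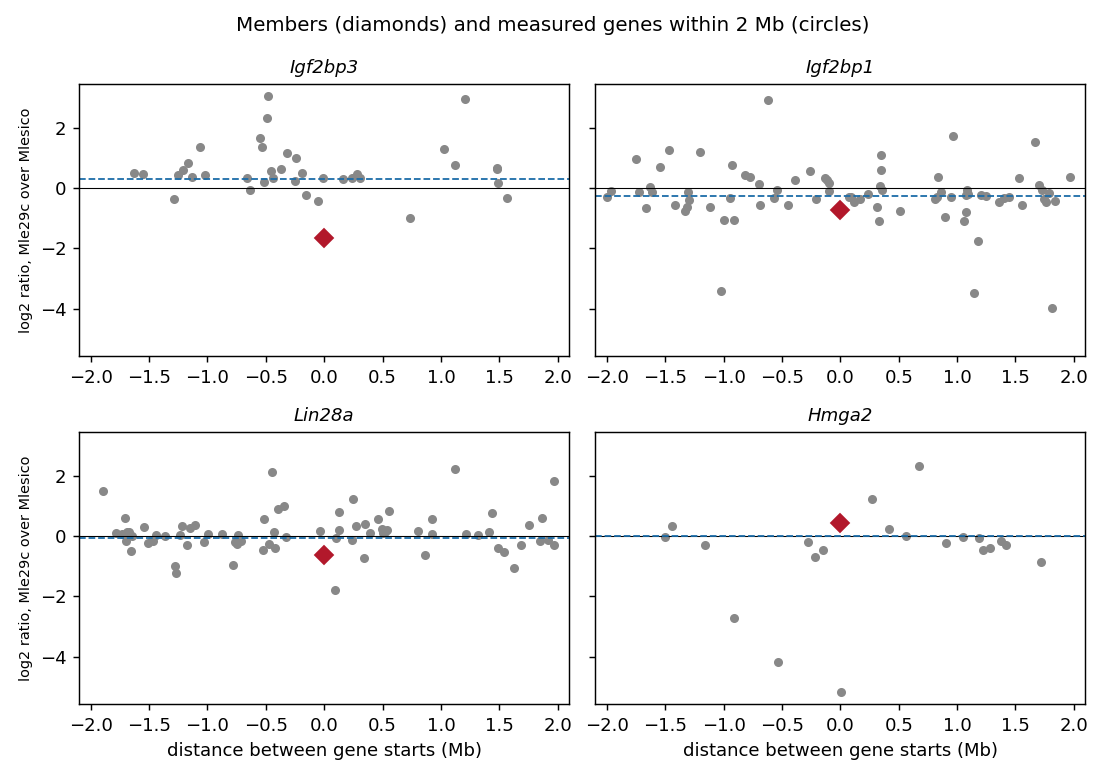
In each panel the log2 ratio of Mle29c over Mlesico is plotted against the distance in Mb between gene starts, with the named gene as a red diamond, other measured genes within 2 Mb as grey circles and the chromosome median as a blue dashed line. Igf2bp3 lies below all 38 neighbours, whereas Igf2bp1 and Lin28a have 12 and 7 neighbours as low or lower.

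The promoters of Igf2bp3 and Hmga2 are shown as the 2 genes that differed most in opposite directions. The windows run from 250 bases before to 50 bases after the annotated start (RefSeq, GRCm38.p6, minus strand), at chr6:49214905-49215204 and chr10:120476420-120476719. For Igf2bp3, and likewise for Lin28a and Lin28b, the start used is that of a transcript beginning inside the gene span of the table. Windows at other starts were not analysed here. Capitals mark the E box CACGTG, a palindrome known as a site of Myc and Usf proteins, and the GC box GGGCGG or CCGCCC, known as a site of Sp proteins.
Igf2bp3 promoter: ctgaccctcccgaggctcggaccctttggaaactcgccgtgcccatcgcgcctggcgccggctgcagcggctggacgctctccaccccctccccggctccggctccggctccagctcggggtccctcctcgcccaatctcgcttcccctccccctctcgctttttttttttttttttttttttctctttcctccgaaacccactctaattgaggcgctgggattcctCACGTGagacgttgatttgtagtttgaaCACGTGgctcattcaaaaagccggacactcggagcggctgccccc
Hmga2 promoter: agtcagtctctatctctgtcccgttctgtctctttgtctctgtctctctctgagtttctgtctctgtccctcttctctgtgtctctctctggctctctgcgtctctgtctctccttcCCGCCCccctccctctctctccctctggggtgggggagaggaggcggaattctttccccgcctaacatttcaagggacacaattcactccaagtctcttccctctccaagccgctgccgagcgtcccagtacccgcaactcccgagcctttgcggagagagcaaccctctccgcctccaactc
The Igf2bp3 window held 2 E boxes and no GC box; 7.15% of 32851 windows of the same length held at least 1 E box and 0.594% held 2 or more. The Hmga2 window held 1 GC box, as did 35.7% of windows at least once, and no E box. The Lin28b window held 1 E box and the Lin28a window 1 GC box. TATAAA, sought on both strands, was in none of these 4 windows and in 13.6% of all. CCAAT, on either strand, was in the Igf2bp3 and Lin28b windows and in 37.4% of all. The Igf2bp3 window had 25 CpG dinucleotides and the Hmga2 window 12, against a median of 7. Myc, the gene of one E box factor, stood at a log2 ratio of 0.18. It was named after its value was seen, and a link of Myc or the E boxes to the Igf2bp3 ratio was not tested.

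Genes of let-7 maturation, on which Lin28 acts, were next set beside all genes. Of 19 genes of let-7 and general microRNA maturation, all measured, 18 were within 2-fold and 1 was higher, where 84.3% of all measured genes were within 2-fold and 8.46% higher. The list median was 0.01, the same as over all measured genes. Drosha and Dgcr8, which cut the primary transcript, stood at 0.51 and 0.50, and Dicer1, which cuts the precursor, at -0.01. The uridylyltransferase genes Tut4 and Tut7, which Lin28a recruits to let-7 precursors, were at -0.34 and 0.01. Dis3l2, the exonuclease that degrades uridylated precursors, was at 0.09. The Argonaute genes, whose proteins carry mature microRNAs, went both ways. Ago2 was at 0.72 over 4 probe sets, Ago1 at 0.03, Ago3 at -0.59 and Ago4 at -0.81. With low-class probe sets kept Ago3 was at -0.31. The gene past 2-fold was Trim71, a stem cell ubiquitin ligase that is itself a let-7 target, at 1.34 from 1 measured probe set. With low-class probe sets kept Trim71 was at 0.28.

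Other reported let-7 targets went both ways. Of 49 genes 41 were measured, with 4 past 2-fold on the higher side and 6 on the lower, where the shares over all measured genes were 8.46% and 7.25%. The median was 0.03, against 0.01 over all measured genes. The higher genes were Peg10, a retrotransposon-derived placental gene, at 3.34, Igdcc4 at 1.45, Trim71 at 1.34 and Ccnd1, the cyclin D1 gene, at 1.22 (1.06 to 1.56 over 3 probe sets). The lower genes were Igdcc3 at -1.65, the receptor gene Acvr1c at -1.47, the cytokine gene Il6 and the matrix gene Thbs1 both at -1.25, the death receptor gene Fas at -1.11 and Tgfbr3 at -1.10. Peg10, Igdcc4, Trim71, Acvr1c, Il6, Fas and Tgfbr3 rest on 1 measured probe set each. Of these, Igdcc4 and Tgfbr3 change sign, to -1.07 and 0.73, when low-class probe sets are kept. Lin28b, Hmga2 and the Igf2bp genes were left out of this list, which they would otherwise join with ratios on both sides of 0.

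The mRNAs that Igf2bp proteins are reported to bind had a median of 0.17 over 19 measured of 23 genes, with 2 higher and 2 lower by 2-fold (8.46% and 7.25% of all measured genes). Igf2, the growth factor mRNA that gave the family its name, had a ratio of -1.13 from its measured probe set, or -2.33 once low-class probe sets were added. The cyclooxygenase gene Ptgs2 was at -2.68, the Wnt effector gene Tcf7l2 at 1.05 and the uncoupling protein gene Ucp1 at 1.53. Ptgs2 and Ucp1 rest on 1 measured probe set each. Tcf7l2 ran from 0.89 to 1.11 over 3 measured probe sets and was at 0.97 with low-class probe sets kept. Actb, the classical Igf2bp1 client, was at -0.07 and Cd44, an adhesion receptor bound by Igf2bp3, at 0.29. Further fetal genes had 3 of 14 measured higher and 3 lower, beside the same 8.46% and 7.25%, with a median of 0.16. The higher ones were Peg10, the Notch-like gene Dlk1 at 1.22 and the zinc finger gene Plag1 at 1.005. Each of these 3 rests on 1 measured probe set, and Plag1 was at 0.51 with low-class probe sets kept. The count of higher fetal genes was 2 once ratios were centred on all measured genes. The lower ones were Afp, which encodes alpha-fetoprotein, at -2.68 with probe sets at -5.04 and -0.33, the growth factor receptor adaptor gene Grb10 at -1.35, and Igf2.

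Genes related to Hmga2 were listed in 2 groups. None of 8 measured genes of the other high mobility group families was past 2-fold (median 0.23), where 84.3% of all measured genes were within it, from Hmgn5 at -0.75 to Hmgb3 at 0.62. Of 11 measured genes linked to Hmga proteins, 2 were higher and none lower, beside 8.46% and 7.25% of all measured genes. They were Ccnb2, a mitotic cyclin gene, at 1.14 and Tert, the telomerase gene, at 1.36. Both rest on 1 measured probe set each, and Tert was at 0.46 with low-class probe sets kept. Cdkn2a, a cell cycle brake that Hmga2 is known to hold down in neural stem cells, was at -0.50 from 1 probe set. It was the lowest gene of this list, was named after its value was seen, and a link to Hmga2 was not tested.

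**Figure D5:**
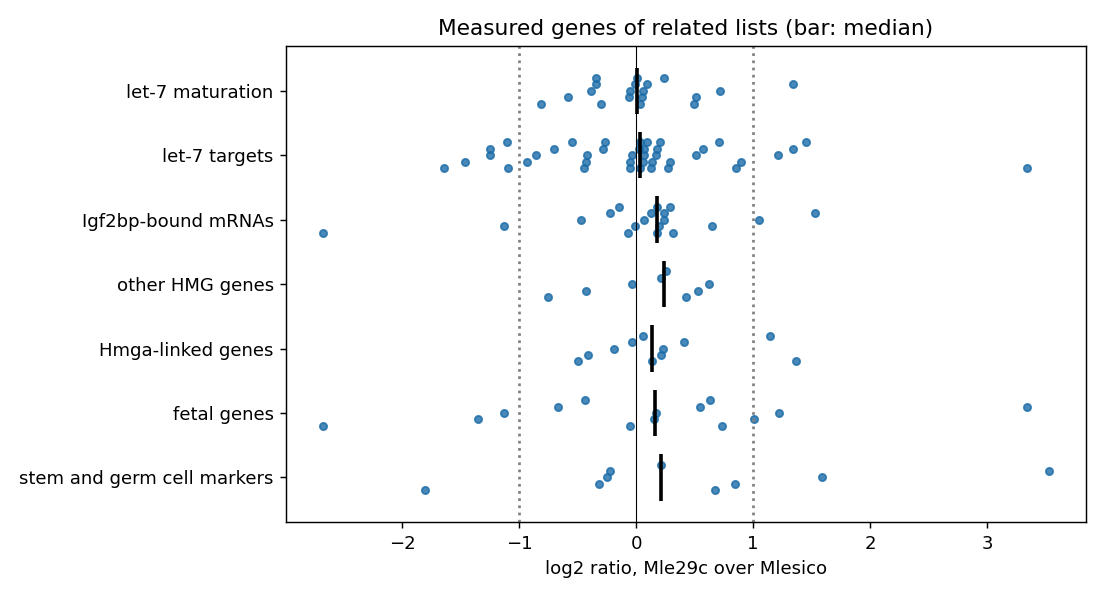
Each point is a measured gene of 1 of 7 lists, placed by its log2 ratio of Mle29c over Mlesico; black bars are medians and dotted lines mark 2-fold. The list medians lie between 0.01 and 0.23, and 18 of the 19 genes of let-7 maturation lie within 2-fold.

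Markers of cells that could carry the Lin28 genes or mix with the epithelium were also listed. Over all measured genes, 8.46% were at least 2-fold higher and 7.25% lower, the shares that apply beside each list. All 12 epithelial markers were measured, with 8 within 2-fold and a median of -0.05. The 3 higher ones were Cdh1 at 1.46, Sftpc at 1.66 and Sftpb at 2.13, and the 1 lower one was Esrp1 at -4.51. Cdh1, Sftpb and Esrp1 rest on 1 measured probe set each. With high-class probe sets alone the count of lower epithelial markers was 0. Stem and germ cell markers had 9 of 15 measured, 2 higher (Utf1 at 3.53 and Dppa5a at 1.59) and 1 lower (Tdgf1 at -1.80), while Pou5f1, Sox2 and Zfp42 had no probe set above the low class. Dppa5a and Tdgf1 rest on 1 measured probe set each, and the 2 measured probe sets of Utf1 stood at 1.95 and 5.11. Fibroblast markers had 8 of 10 measured and 5 within 2-fold, with Postn at 2.39, Col3a1 at 1.55 and Col1a1 at -3.41. Postn rests on 1 measured probe set, and the 2 probe sets of Col3a1 stood at 0.50 and 2.59. Blood cell markers had 8 of 10 measured and 1 past 2-fold, Laptm5 at 1.02, whose probe sets ran from -1.60 to 2.06 and whose mean was under 2-fold. Endothelial markers had 4 of 7 measured and 2 within 2-fold, with Vwf at 1.40 and Tek at -1.57, each from 1 measured probe set. These ratios are differences between lines, not levels, and their part in the ratios of the Igf2bp, Lin28 and Hmga genes was not tested.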

How the data were processed

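Each line was measured on 1 array with biotin-labelled cRNA, per the labels. The authors deposited log values; MAS5 is named in the submitters' processing notes, without version or scaling. The log base is not stated and was read as log2. The deposited log2 values are centred per probe set, from the values themselves. Gene names came from the 2016 platform annotation: apart from 64 controls, 34945 list 1 gene, 932 several and 9160 none here. Current symbols were looked up by gene number in a GRCm38.p6 table (34741 found). Level classes came from single-precision rounding: the sum of both values equals 1 rounding step or 0, and for 0 the step of the value was used, which is less certain. As a check, 89.5% of 114 ribosomal protein probe sets were measured, and 41.2% of 80 olfactory and vomeronasal receptor probe sets were. A gene called measured is therefore not shown to be expressed. On simulated data, classes from the step were wrong more often than those from the sum. A gene value is the median over its measured probe sets; 2-fold is a log2 ratio of 1. No test was possible.

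The members and lists were chosen with earlier results of these data known. The text names all members, list genes past 2-fold (or the extremes), the nearest neighbours and the genes nearest in ratio. Let-7 maturation genes were named by role (Drosha, Dgcr8, Dicer1, Tut4, Tut7, Dis3l2, Trim71). Ago1, Ago2, Ago3, Ago4, Myc, Actb, Cd44 and Cdkn2a were added after their values were seen. Python 3.11.15, numpy 2.4.6, pandas 2.3.3 and matplotlib 3.10.9 were used. Alternatives were another probe set filter, gene value, centring, threshold and log base.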

Additional observations from a re-analysis of the deposited data

How the results depend on the processing

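The gene ratios of Igf2bp3, Igf2bp1, Lin28a and Hmga2 kept their direction under each alternative that gave them a value. The alternatives were 7 planned ones on the values, and 2 added after seeing the data. Some could not reverse a direction: natural logarithms rescale every ratio, and centring on all measured genes shifts it by 0.01. Lin28a rests on 1 measured probe set. Its ratio therefore stayed at -0.61 with the high class alone, without _x_at and _s_at probe sets and with the mean. Igf2bp3 ranged from -2.39 to -1.46, Igf2bp1 from -1.03 to -0.33, Lin28a from -1.14 to -0.54 and Hmga2 from 0.28 to 1.30; the extremes include the reading as natural logarithms, which enlarges every ratio by construction. The number of members at least 2-fold lower, 1 in the report, was 2 with every probe set kept, where Lin28a joined at -1.14, and 2 with natural logarithms, where Igf2bp1 joined. It was 3 at 1.5-fold and 0 at 4-fold. The number at least 2-fold higher, 0 in the report, was 1 with high-class probe sets alone, where Hmga2 rests on 1 probe set. Over all 14780 measured genes, the higher and lower counts were 1250 and 1072. Of the same genes they became 2035 and 1820 with natural logarithms, 2465 and 2259 at 1.5-fold, and 396 and 343 at 4-fold. With every probe set kept they were 2252 and 1980 of 18193 genes. In the high class alone they were 679 and 554, among fewer genes. With the class from the sum alone, chosen after seeing the data, they were 625 and 548, also among fewer genes. Counts from settings with unlike numbers of genes cannot be compared as shares. Medians of let-7 targets lay between -0.08 and 0.09, and those of let-7 maturation genes between -0.06 and 0.04. Of 429 alternative values, 80 moved by more than the SD between probe sets (gene ratios), by more than 1.5 times (counts) or outside the 95% interval of the list median; most are small counts of list genes. The other 349 stayed within those wide limits, some of them by construction. Of the list genes, Igdcc4 and Tgfbr3 changed sign with every probe set kept, to -1.07 and 0.73. No paired analysis was possible because each line has 1 array, and no array could be left out. The level class is approximate, which limits every statement on low signals and on whether a measured gene is expressed.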
